A study of Sus scrofa with 8 samples.

Results

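The entries bta-miR-1260b and ssc-miR-1285 of a 1-colour Agilent microRNA (miRNA) array gave most of the light measured on every array of a study of the porcine corpus luteum. They were chosen by name, as all entries of the miR-1260 and miR-1285 names in any species, and are 2 of the 686 miRNA targets on the array. The choice was made because of their high signal over all 8 arrays, so their levels and shares are given here as a description without a test, while the comparison of the groups did not enter the choice. The first bears a cattle name and the second a porcine name in the array design.

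The corpus luteum develops from a follicle after ovulation and secretes progesterone. Luteal tissue came from crossbred gilts of 1 commercial herd, 6 to 8 months old. The cyclic group (4 arrays) consisted of gilts that were not inseminated, with tissue taken on day 14 of the estrous cycle, and the pregnant group (4 arrays) of gilts inseminated at the second estrus, with tissue taken on day 14 of pregnancy. All were untreated otherwise, and each array took 100 ng of Cy3-labelled total RNA (integrity number over 8) from 1 sample, not pooled. The tissue was not sorted, so the arrays hold RNA of all cells of the gland, and fewer cells of a type cannot be told apart from less RNA per cell.

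An miRNA is a short RNA that guides Argonaute proteins to partly complementary messenger RNAs and lowers their translation or stability. Entries of the miR-1260 group are known for their resemblance to the 3′ end of a leucine transfer RNA. Human miR-1285 lies in sequence related to Alu repeats, which derive from the RNA of the signal recognition particle, and has been described as a regulator of the tumour suppressor p53. Array probes for such names may therefore pair with fragments of other abundant small RNAs, which these arrays cannot distinguish from the mature miRNA. The sequences of these entries and of their probes were not used here.

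Each array carried 13720 spots in 1683 probes, of which 22.8% to 28.8% were well above background and 0 were saturated. A total of 212 targets were detected on at least 4 arrays and were tested. Of the gonad list (2 entries), miR-202-3p was detected on all 8 arrays and miR-202-5p on 5. Their log2 differences, pregnant minus cyclic, were 0.74 and −0.28, and neither passed (limma, adjusted p = 0.141 and 0.294). The 6 entries on the muscle list (miR-1, miR-133 and miR-206) and the 2 on the liver list (miR-122) were detected on none. Of the red blood cell list (4 entries of miR-451, miR-144 and miR-486) 2 were tested and 0 passed, and it gave 0.114% to 0.627% of the summed signal. Of the leukocyte list (11 entries) 6 were tested and 1 was lower in pregnancy, a share near the 11.3% of all tested targets that passed. That target, ssc-miR-155-5p, did not pass under summed-signal scaling (limma, adjusted p = 0.0699). The tested leukocyte entries had a median log2 difference, pregnant minus cyclic, of −0.49, against 0.00 over all tested targets. They ran from −2.29 for hsa-miR-223-3p (limma, adjusted p = 0.0767) to 0.01 for ssc-miR-150. The leukocyte list gave 0.0599% to 0.520% of the signal. The part of these cells in the results was not tested. Slide 3 carried replicates 3 and 4 of each group and was scanned on the same day as slide 2, with cyclic replicates 1 and 2. Pregnant replicates 1 and 2 were on slide 1, scanned on another day.

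Both targets were represented by 2 probes each with 10 spots per probe, and every one of these spots was well above background. The brighter probe of bta-miR-1260b, A_38_P00036530, read 205978, 260905, 183047 and 211364 intensity units on cyclic replicates 1 to 4. On pregnant replicates 1 to 4 it read 213945, 220977, 188366 and 165037. The lowest and the highest array thus differed 1.58-fold, and the group ranges overlapped. The highest single spot reached 274565 units, which is 35.2% of the scanner's saturation value on that array, so the signal was not capped. The second probe, A_38_P00036529, ran from 50783 to 98131 units, again with pregnant replicate 4 lowest and cyclic replicate 2 highest. Its readings were lower than those of the first probe by a factor of 2.66 to 3.25, depending on the array.

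For ssc-miR-1285 the brighter probe, A_38_P00020260, read 10076, 9816, 6636 and 8364 units on cyclic replicates 1 to 4 and 8727, 8991, 7775 and 5853 units on pregnant replicates 1 to 4. The lowest reading was again that of pregnant replicate 4, and the ranges of the groups overlapped. Its second probe, A_38_P00020259, ran from 1383 to 2252 units, lower by a factor of 4.00 to 4.47. Spots of 1 probe agreed closely. The coefficient of variation between spots was 0.785% to 3.56% for the 4 probes, against an array median of 5.46% to 6.95% for probes detected on all arrays. The scanner software had marked 12 of their spots over the 8 arrays as outliers, and these were left out.

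**Figure D1:**
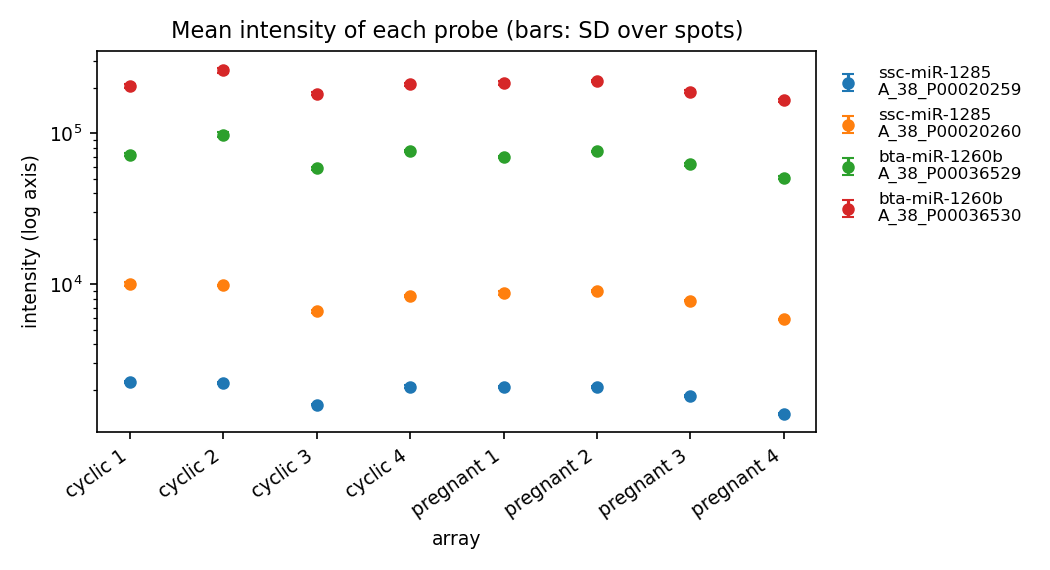
Mean intensity (log axis) of the 4 probes of bta-miR-1260b and ssc-miR-1285 on each of the 8 arrays, with the SD over up to 10 spots, which is smaller than most symbols. All 4 probes read lowest on pregnant replicate 4, where the brightest probe stood at 165037 units.

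As a share of the signal summed over all 686 targets, taking the brightest probe of each, bta-miR-1260b held 78.1%, 77.4%, 80.3% and 72.4% on cyclic replicates 1 to 4 and 76.3%, 79.4%, 73.6% and 78.9% on pregnant replicates 1 to 4. It was at rank 1 on all 8 arrays, and its share was lowest on cyclic replicate 4 and pregnant replicate 3. The share of ssc-miR-1285 was 3.82%, 2.91%, 2.91% and 2.86% on the cyclic arrays and 3.11%, 3.23%, 3.04% and 2.80% on the pregnant arrays. It was at rank 3 on 7 arrays and at rank 2 on cyclic replicate 1, where it stood above ssc-miR-21, which is known for limiting cell death. Both targets together held 75.2% to 83.2%, and the remaining 684 targets shared 16.8% to 24.8%. Of these, ssc-miR-21 held 3.19% to 7.09% and ssc-let-7a, a regulator of differentiation, 0.615% to 1.32%. The next brightest names were ssc-let-7f, ssc-miR-126-3p, ssc-miR-22-3p, hsa-let-7b-5p, ssc-miR-23b and ssc-miR-26a, with mean shares from 0.806% down to 0.430%. Among them, hsa-let-7b-5p was higher in pregnancy by 0.74 on the log2 scale (limma, adjusted p = 0.0332). The others did not pass (limma, adjusted p from 0.290 to 0.850). Probes differ in how brightly they report their target, so a share of signal is not a share of molecules.

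**Figure D2:**
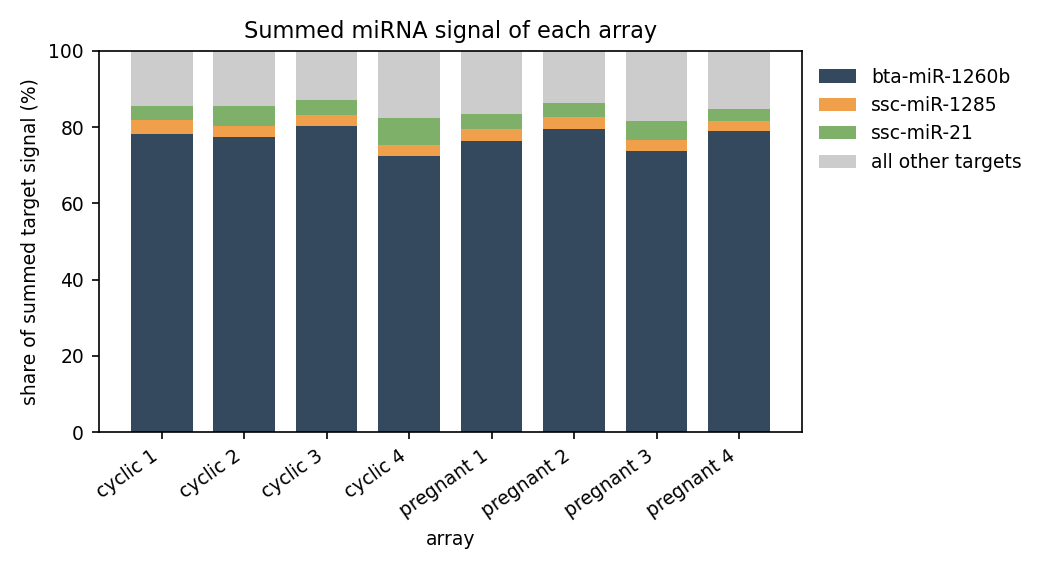
Share of the summed target signal in percent (bars from 0 to 100) on each array, divided into bta-miR-1260b, ssc-miR-1285, ssc-miR-21 and all other targets. The dark part, bta-miR-1260b, fills 72.4% to 80.3% of every bar.

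The groups were first compared by these shares. The share of bta-miR-1260b averaged 77.0% ± 3.3 (SD, n = 4) in the cycle and 77.1% ± 2.7 in pregnancy, a difference of 0.015 percentage points (exact permutation test, 2-sided, p = 1). That of ssc-miR-1285 averaged 3.13% ± 0.46 and 3.05% ± 0.18, a difference of −0.082 percentage points (exact permutation test, p = 0.914). Both differences lay within the spread between arrays of a group. Since bta-miR-1260b made up most of the sum, its share could move little even where its level moved. Its share test therefore says little about its level. With 4 arrays against 4 the smallest p that this test allows is 0.0286. The share difference of ssc-miR-1285 was 0.149 without cyclic replicate 1 (exact permutation p = 0.229). That of bta-miR-1260b was −1.54 without cyclic replicate 4 (exact permutation p = 0.457). It was 1.10 without cyclic replicate 3 and 1.17 without pregnant replicate 3. In both targets, leaving out 1 array could thus change the size or sign, and for bta-miR-1260b this held for several arrays.

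The levels were then compared after division of each array by the 75th percentile of its targets detected on all arrays, on the log2 scale. On cyclic replicates 1 to 4, bta-miR-1260b stood at 9.81, 9.78, 9.89 and 9.39, and on pregnant replicates 1 to 4 at 9.60, 9.87, 9.29 and 9.77. Cyclic replicate 4 and pregnant replicate 3 were the lowest arrays of their groups, as they were for the share. The group means were 9.72 ± 0.22 and 9.63 ± 0.25 (SD, n = 4). The difference, pregnant minus cyclic, was −0.08 ± 0.20 (SE; limma, adjusted p = 0.843), with a 95% interval from −0.52 to 0.36. In linear terms the pregnant level was 0.944 of the cyclic level, with an interval from 0.696 to 1.28.

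For ssc-miR-1285 the cyclic arrays stood at 5.46, 5.04, 5.10 and 4.73 and the pregnant arrays at 4.99, 5.25, 4.69 and 4.95 (log2, replicates 1 to 4). The highest array was cyclic replicate 1, and the other 3 cyclic arrays lay within the pregnant range. The means were 5.08 ± 0.30 and 4.97 ± 0.23, and the difference was −0.11 ± 0.17 (SE; limma, adjusted p = 0.732), with a 95% interval from −0.49 to 0.27. The pregnant level was thus 0.925 of the cyclic one, with an interval from 0.710 to 1.20. A p above the threshold does not show equal levels, and these intervals give the sizes the data allow.

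**Figure D3:**
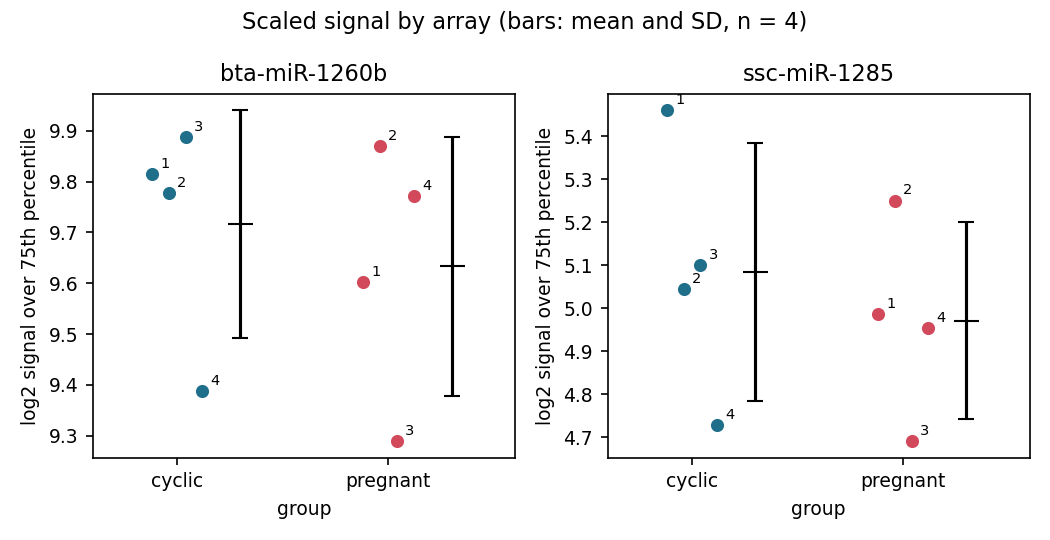
Log2 signal over the array's 75th percentile for bta-miR-1260b and ssc-miR-1285, 1 point per array with its replicate number, and the mean ± SD of each group (n = 4). The groups overlap in both panels, with means of 9.72 and 9.63 for bta-miR-1260b and of 5.08 and 4.97 for ssc-miR-1285.

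Of the 2 targets, 0 passed the limma test and 0 had an unadjusted p under 0.05 (0.686 and 0.528), where 24 of the 212 tested targets passed (11.3%, 11 higher and 13 lower). In neither target were the groups apart, which held for 17.0% of the tested targets. Over all tested targets the median difference was 0.00 and the median size of a difference 0.26. Ranked from the smallest difference upwards, bta-miR-1260b was at place 44 and ssc-miR-1285 at place 62 of 212. Their standard errors of 0.20 and 0.17 were at places 150 and 101 from the smallest, with a median of 0.17 over the tested targets. Within slide 3, which held both groups, the differences were −0.11 and −0.09 (limma, adjusted p = 0.937 and 0.845). On the only scan day with arrays of both groups they were −0.19 and −0.26 (limma, adjusted p = 0.754 and 0.538). The count of 24 depended on the arrays used. It was 2 (0 higher, 2 lower) with scan day as a block and also on the scan day with both groups. It was 81 without cyclic replicate 1, 12 without cyclic replicate 2, 7 without cyclic replicate 3, 9 without cyclic replicate 4, and 10, 10, 11 and 7 without pregnant replicates 1 to 4 in turn.

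**Figure D4:**
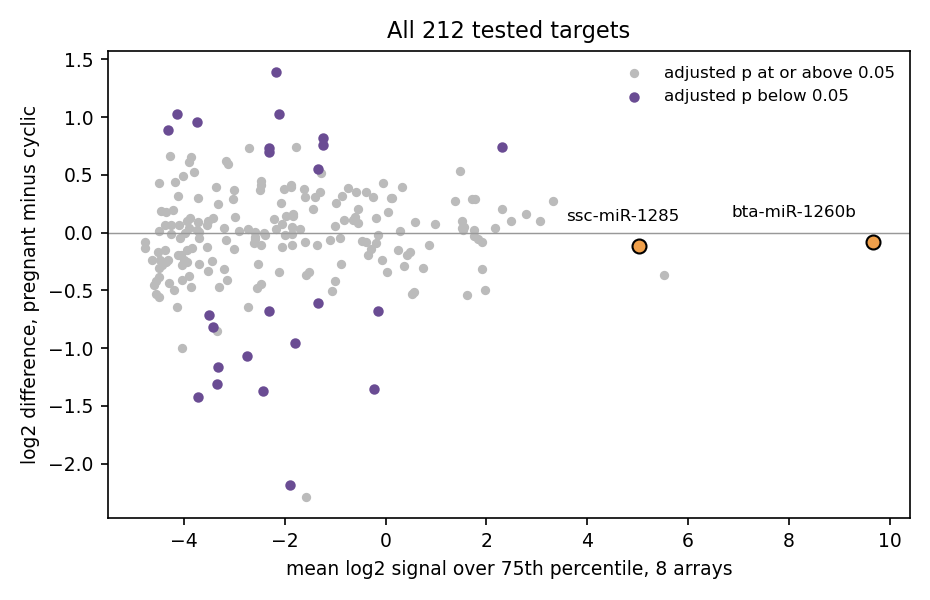
Log2 difference, pregnant minus cyclic, against the mean log2 signal over the 75th percentile for the 212 tested targets, with the 24 that passed in purple and both members in orange. The members lie at the bright end with differences of −0.08 and −0.11.

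The probes were also tested singly, in a fit over 391 probes of which 12.5% passed. The probes of bta-miR-1260b gave −0.08 ± 0.21 and −0.18 ± 0.18 and those of ssc-miR-1285 −0.11 ± 0.17 and −0.10 ± 0.15 (SE; limma, adjusted p from 0.541 to 0.843). All 4 had the same sign and 0 of 4 passed or had an unadjusted p under 0.05.

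The ratio of bta-miR-1260b to ssc-miR-1285 within an array does not depend on any scaling by a single factor. It was 20.4, 26.6, 27.6 and 25.3 on cyclic replicates 1 to 4 and 24.5, 24.6, 24.2 and 28.2 on pregnant replicates 1 to 4. The ratio was lowest on cyclic replicate 1 and highest on pregnant replicate 4, a range of 1.38-fold. On the log2 scale it averaged 4.63 ± 0.19 in the cycle and 4.66 ± 0.10 in pregnancy (SD, n = 4), a difference of 0.03 (exact permutation test, 2-sided, p = 0.857). The ranges of the groups overlapped.

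The profile over the 8 arrays was compared with that of all other tested targets by Pearson's r of the scaled log2 signal, as a description, since every value on an array shares the same divisor. Of 211 other targets, ssc-miR-1285 had the highest r with bta-miR-1260b (r = 0.83, Spearman's rho = 0.88). It was followed by hsa-miR-1281 (r = 0.82, rho = 0.90), whose rho was higher than that of ssc-miR-1285. Next came ssc-miR-9842-5p (r = 0.78, rho = 0.79), hsa-miR-770-5p (r = 0.78, rho = 0.81) and hsa-miR-324-3p (r = 0.77, rho = 0.76). For ssc-miR-1285 the highest r were those of ssc-miR-9842-5p (r = 0.88, rho = 0.90), bta-miR-1260b, ssc-miR-181d-5p (r = 0.79, rho = 0.86), hsa-miR-141-3p (r = 0.70, rho = 0.67) and hsa-miR-324-3p (r = 0.69, rho = 0.69). Of these 6 targets beside the members, 0 passed the group test (limma, adjusted p from 0.237 to 0.937). Among them, ssc-miR-181d-5p was detected on only 6 arrays and stood at the floor of the log2 values (−4.86) on cyclic replicate 4. The dim hsa-miR-770-5p was detected on 7 arrays. Their r therefore rest partly on values at or near the floor. A list of miRNA numbers known to resemble fragments of other small RNAs had 2 further entries on the array, hsa-miR-1248 and hsa-miR-1291, which are known to overlap small nucleolar RNAs in human. Both were detected on none of the arrays.

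The next question was what signal of this size does to the scaling of an array. Before scaling, the log2 signal of bta-miR-1260b had an SD of 0.20 over the 8 arrays, that of ssc-miR-1285 0.27, and the median tested target 0.39. Division by the 75th percentile lowered the SD of 175 of the 212 tested targets, to a median of 0.28. It raised that of bta-miR-1260b to 0.23 and lowered that of ssc-miR-1285 to 0.25. The 75th percentile itself ran from 189 to 316 units and was highest on cyclic replicate 4, pregnant replicate 3 and cyclic replicate 2. The first pair of these arrays had the lowest scaled level of bta-miR-1260b.

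Dividing instead by the summed signal made bta-miR-1260b the main part of its own divisor. Its SD fell to 0.05, the smallest of all 212 tested targets, and its difference was 0.00 ± 0.06 (SE; limma, adjusted p = 0.998). For ssc-miR-1285 the SD was 0.14 and the difference −0.03 ± 0.12 (SE; limma, adjusted p = 0.908). When both targets were left out of the sum, their SDs were 0.26 and 0.28 and their differences −0.01 and −0.04. With the full sum, bta-miR-1260b made up 72.4% to 80.3% of the quantity it was divided by.

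The divisor also enters the values of every other target. The summed signal ran from 209257 to 337035 units and followed bta-miR-1260b (r = 0.97 over 8 arrays, with the one contained in the other), and without both targets it ran from 38316 to 72344 units. On the log2 scale the gap between the summed signal and the 75th percentile varied by 0.47 between arrays with both targets in the sum and by 0.21 without them. Between the groups the summed signal differed by −0.13 on the log2 scale (exact permutation test, p = 0.429, adjusted p = 0.720 over 7 quantities). The 75th percentile itself differed by −0.04. The sum without both targets differed by −0.11, less than its SD of 0.43 and 0.29 within the groups. Relative to the 75th percentile, the sums with and without both targets differed by −0.08 and −0.07, and their use moved the differences of the tested targets upward by a median of 0.08 and 0.07.

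Under summed-signal scaling 21 targets passed (9.91%), 14 higher and 7 lower, against 11 higher and 13 lower with the 75th percentile, and 17 were shared. With both targets left out of the sum 24 passed (11.3%), 14 higher and 10 lower, and 21 were shared. Without any scaling 9 passed (4.25%), 3 higher and 6 lower, all of them among the 24. In all, 7 calls were lost and 4 gained when the full sum replaced the 75th percentile. Those with the smallest adjusted p were ssc-miR-9850-5p (−0.68, adjusted p = 0.0225, and −0.59, adjusted p = 0.0510), hsa-miR-181a-5p (0.55, adjusted p = 0.0299, and 0.63, adjusted p = 0.0532) and ssc-miR-155-5p, known from stimulated immune cells (−0.96, adjusted p = 0.0323, and −0.87, adjusted p = 0.0699; limma, first with the 75th percentile, then with the sum). They were followed by ssc-miR-9852-3p (−0.81, adjusted p = 0.0323, and −0.73, adjusted p = 0.0981) and ssc-miR-9853-5p (−0.61, adjusted p = 0.0323, and −0.53, adjusted p = 0.0510). All 5 kept their sign. Of the 7 lost calls, 4 passed again once both bright targets were left out of the sum, while ssc-miR-9853-5p (limma, adjusted p = 0.0776), ssc-miR-132 (0.0543) and hsa-miR-125a-3p (0.0776) did not. The 4 gained calls, named after their values were seen, were ssc-miR-450a, ssc-miR-423-3p, ssc-miR-7134-5p and ssc-miR-1306-5p, all higher in pregnancy. Of these, 1 also passed without both bright targets in the sum, ssc-miR-450a (limma, adjusted p = 0.0428).

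Quantile normalization gives the brightest probe of every array the same value. Since the brighter probe of bta-miR-1260b was at rank 1 of 1683 on all 8 arrays, its SD and its difference were 0 by construction. The brighter probe of ssc-miR-1285 was at rank 4 on 6 arrays, at rank 3 on cyclic replicate 1 and at rank 5 on cyclic replicate 4, so it took the log2 values 13.05, 13.58 and 12.38 there. Its SD was 0.32 and its difference 0.04 ± 0.20 (SE; limma, adjusted p = 0.975). All pregnant arrays took the same value, so this difference rested on the ranks of cyclic replicates 1 and 4 and says little about the level of ssc-miR-1285.

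The authors' deposited table, whose scaling between arrays is unknown, also held bta-miR-1260b nearly constant. It gave the brighter probe a mean of 0.0143961 on 4 arrays (cyclic replicates 1 and 2, pregnant replicates 2 and 4), the same in every digit kept. The remaining values in the authors' deposited table were −0.089 and −0.124 on cyclic replicates 3 and 4 and 0.012 and 0.015 on pregnant replicates 1 and 3, on a log2 scale centred per spot. Their SD of 0.06 was the smallest of the 212 tested targets. From the authors' deposited table ssc-miR-1285 had an SD of 0.22, with 0.249 on cyclic replicate 1 as its highest and −0.428 on cyclic replicate 4 as its lowest value. Its value was the same, 0.183773, on cyclic replicate 2 and pregnant replicate 4. The differences of bta-miR-1260b and ssc-miR-1285 were 0.06 and 0.07 (limma, adjusted p = 0.776 and 0.827), and 0 of the 2 passed under any of the scalings named here. For bta-miR-1260b, quantile normalization and the full sum fixed or nearly fixed the difference. The lack of a call under these scalings therefore carries no information about that target.

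**Figure D5:**
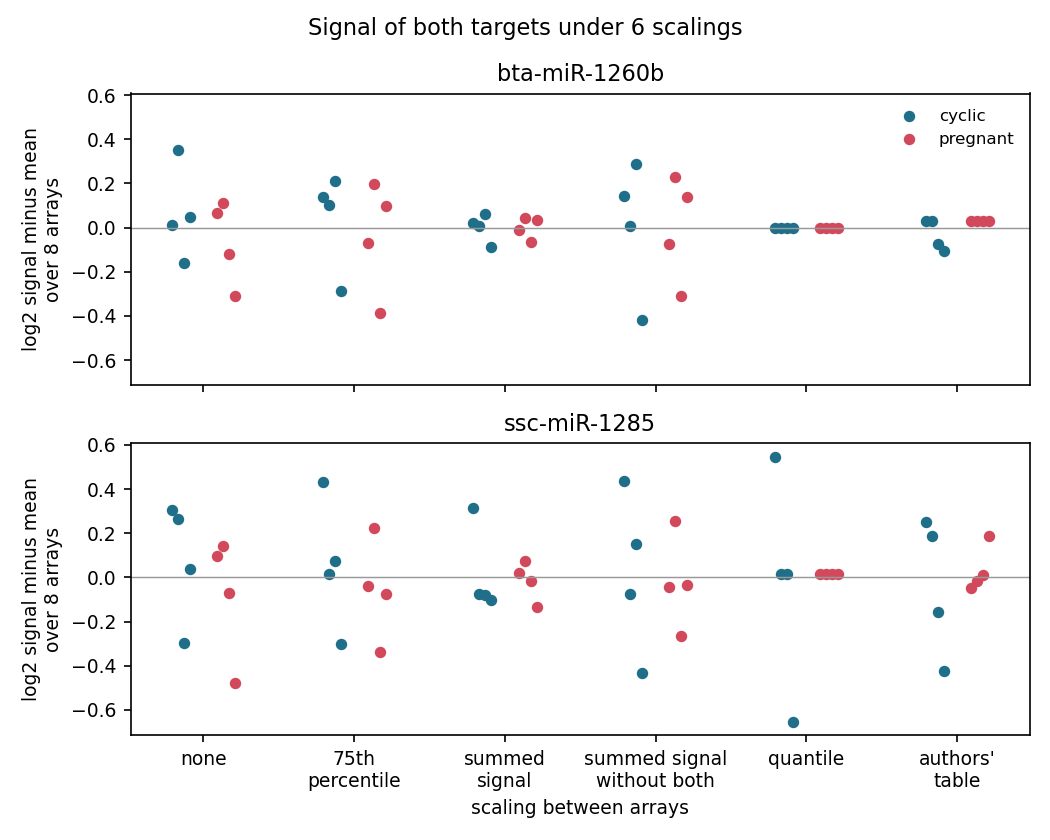
Log2 signal of bta-miR-1260b and ssc-miR-1285 on each array, minus its mean over the 8 arrays, under 6 scalings between arrays. The points of bta-miR-1260b spread with an SD of 0.20 without scaling and of 0.23 with the 75th percentile, of 0.05 with the summed signal and of 0 with quantile normalization.

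The brightest spots also had a measurable surrounding. The local background around the spots of bta-miR-1260b had a median of 21.0 to 30.0 units, 2.0 to 5.0 units above that of the other spots of the same array, on 8 of 8 arrays. Around ssc-miR-1285 it was 0 to 0.5 units above, and higher on 4 of 8 arrays. Directly next to spots of bta-miR-1260b lay 64 to 67 spots per array of targets that were detected on no array. Their median background-subtracted signal was −0.364 to 0.999 units, and that of the same kind of spot elsewhere −0.772 to −0.0712. The adjacent spots were higher on 8 of 8 arrays, by 0.228 to 1.20 units. Next to ssc-miR-1285 the corresponding spots were higher on 3 of 8 arrays, by −0.311 to 0.339 units over the arrays. These amounts are small beside the floor used for the log2 values, which corresponded to 6.50 to 10.9 units.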

How the data were processed

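Scanner files of 8 arrays were used. Per the file headers, the authors' intensity values were background-subtracted and spatially detrended within each array by Agilent Feature Extraction 10.7.3.1 (version 10.7 in the submitters' processing notes). A second source was the authors' deposited values on a log2 scale, centred per spot, with unstated scaling between arrays. In 2 of its columns 3 cells above 100 are not on that scale, so these deposited columns were taken as a score and the cells as missing. Against the scanner differences over 2806 bright spots its slopes were 0.843 to 0.983 and r 0.878 to 0.974. Its column medians were 0.0108, −0.000283, 0.000689 and −0.000205 (cyclic) and −0.000302, 9.45e-05, −9.45e-05 and 0.0318 (pregnant).

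Control spots and spots marked as outliers were left out. Detection of a probe required a share of 0.5 or more of its spots to be well above background. Spots were averaged per probe, the brightest probe of a target was used, and signals were divided by the array's 75th percentile over targets detected on all arrays, floored at 0.0344 and taken to log2. Targets detected on at least 4 arrays were tested with limma 3.58.1 (eBayes with trend, 2-sided, R 4.3.3), with Benjamini-Hochberg adjustment over all of them at 0.05. The labels state no test. Shares, ratios and array sums were tested by exact permutation of samples. Spots within 16 scanner pixels counted as adjacent. Figures were drawn with matplotlib 3.10.9. In simulated data with 40 of 212 targets changed by 1.5 on the log2 scale, the fit recovered 100% of them and made 5 false calls. That simulation held no slide or scan day effects, and its changes were far larger than the differences of both members.

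Targets named were, by rule, the members, the 10 brightest names, the 5 profiles most like each member, the listed names resembling other small RNAs, and the 5 calls with the smallest adjusted p among those that changed with summed-signal scaling. The members and lists were chosen with earlier results of these data known. No label says that equal replicate numbers share an animal or litter. Precision is limited by the small number of arrays. The limma p-values set a difference against the spread between these samples, moderated over the tested targets. The permutation p-values set it against the differences under other divisions of the arrays into groups.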

Additional observations from a re-analysis of the deposited data

Results flagged for a closer look

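On cyclic replicate 1 the share of ssc-miR-1285 was 3.82%, far from the other 3 cyclic arrays, which lay between 2.86% and 2.91%. On pregnant replicate 4 the log2 ratio of bta-miR-1260b to ssc-miR-1285 was 4.82, apart from the other 3 pregnant arrays at 4.60 to 4.62. This array also had the lowest intensity of both targets. The threshold on the gap to the nearest array is passed by chance in about 1 of 20 groups, and several quantities were screened.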

How the results depend on the processing

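For bta-miR-1260b, 3 of 28 other settings fix or nearly fix the difference by construction (quantile normalization with and without normexp, and the full sum) and say nothing about stability. Under the other 25 it did not pass the limma test, with adjusted p from 0.413 to 0.978 and differences from −0.19 to 0.22. The authors' deposited values, counted among these 25, also held bta-miR-1260b nearly constant (SD 0.06) and say little about its stability. For ssc-miR-1285 none of 28 passed, with adjusted p from 0.430 to 0.975 and differences from −0.26 to 0.19. The upper end, 0.975, came from quantile normalization without normexp, where the rank of its probe sets the value. All pregnant arrays and cyclic replicates 2 and 3 had the same log2 value there, 13.05. The difference under that setting thus rested on cyclic replicates 1 and 4 and says little about the stability of ssc-miR-1285. The sign was not fixed: without single arrays the ranges were −0.19 to 0.03 and −0.23 to 0.01, positive without pregnant replicate 3 and without cyclic replicate 1, respectively, and the authors' deposited values gave 0.06 and 0.07. Scaling to the 75th percentile over all probes, most of them undetected, moved the median difference of the tested targets to 0.30 and the members to 0.22 and 0.19, which is that shift. It gave 62 calls (55 higher, 7 lower). Calls numbered 9 without scaling, 12 with the scanner's total gene signal, 1 without a filter on dim targets, 9 on the slide with both groups, and 2 with scan day as a block and 2 within 1 scan day (both chosen after seeing the data). Leaving out single arrays gave 7 to 81 calls. The share differences ranged from −1.54 to 1.17 and from −0.170 to 0.149 percentage points without single arrays, and the sum without both targets from −0.283 to 0.022 (log2). With outlier-marked spots kept, the share difference of bta-miR-1260b was 1.58 percentage points (exact permutation p = 0.429). The shares themselves depended on the background correction. With normexp (offset 50) and no scaling, bta-miR-1260b held 63.7% to 69.7% of the summed signal and ssc-miR-1285 2.37% to 3.34%. Same-numbered arrays deviated together with r of 0.104, 0.098, −0.177 and 0.160. The most similar array of the other group had the same number for replicates 1 and 4, but not for replicates 2 and 3. These values do not settle whether arrays were paired, and as no label states a pairing, the numbers were not taken as pairs. A replicate block gave 26 calls and member differences of −0.08 and −0.11 (limma, adjusted p = 0.898 and 0.729). No other target had the same miRNA number, so the planned comparison of further entries gave no value.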
